A study of Mus musculus with 9 samples.

Results

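The endoplasmic reticulum (ER) folds, glycosylates and checks the proteins a cell secretes or puts in its membranes. The 37 genes described here encode its chaperones, its disulfide and prolyl isomerases, its degradation machinery, part of its translocon, and the sensors of the unfolded protein response. They were taken by symbol from a table of 28965 genes, and all 37 were found in it. RNA came from 3T3-L1, a mouse cell line of fibroblast-like adipocyte precursors with a wild-type genotype. In every group the confluent cells spent 24 h in an adipogenic cocktail of insulin (0.1 µg/mL), 3-isobutyl-1-methylxanthine (30 µg/mL) and dexamethasone (0.1 µg/mL). MDI cells also had the vehicle, albumin. The OA group was given 100 µM oleic acid bound to albumin. The OA_T0 group was given the same oleic acid and 5 µM T0901317, a synthetic agonist of the liver X receptors (LXR). Each group had 3 libraries, and no group had the agonist without oleic acid. No source used here says whether the libraries of a group came from separate cultures, and the spread behind the p-values may thus be technical.

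When unfolded proteins build up in the ER, the chaperone BiP, encoded by Hspa5, leaves 3 membrane sensors, which then signal to the nucleus. IRE1 (Ern1) splices the Xbp1 mRNA into a form that encodes an active transcription factor. ATF6 (Atf6) is cut in the Golgi and its cytosolic part enters the nucleus. PERK (Eif2ak3) phosphorylates the initiation factor eIF2, which slows translation in general but raises that of Atf4. ATF6 and XBP1 mainly raise chaperones and degradation genes. ATF4 raises genes of amino acid supply and of the stress response, and kinases that sense other stresses reach ATF4 as well. Cells that turn into adipocytes load lipid and secrete large amounts of protein, and both draw on the ER.

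The chaperone genes are known for a short sequence in their promoters, the ER stress response element (ERSE), which is bound by NF-Y together with ATF6 or XBP1. RefSeq promoters on GRCm38.p6, from 250 bases before to 50 bases after each start, were given for 31 of the 37 genes, with 37 promoters in all because some genes have several, and not for Atf6, Derl1, Erp29, Hyou1, Manf and Sec61a1. The ERSE was searched on both strands as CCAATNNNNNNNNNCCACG. It was present in 9 of the 37 promoters (24.3%) and in 39 of all 32851 promoters of that length (0.119%). The genes with a match were Hspa5, Hsp90b1, Calr, Canx, Pdia6, Dnajc3, Creld2, Syvn1 and Derl3. The shorter ERSE-II, ATTGGNCCACG, shares the bases CCACG with the ERSE and was present in 2 promoters (5.41%), those of Herpud1 and Dnajb11, against 12 of all promoters (0.0365%). A match is a description of letters and does not show a bound site. Since chaperone genes are known for such elements, their higher share among the members is not a finding of these data.

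The following windows of 30 bases, 5′ to 3′ along the strand of the gene, show the element (capitals) of Hspa5, the classical target, and of 5 other members, none of which passed a test in the fit described below, Derl3 being untested. They lay at chr2:34772020-34772049 (plus strand), chr11:50325794-50325823 (minus strand), chr12:17266486-17266515 (plus strand), chr15:88819515-88819544 (plus strand), chr19:6046527-6046556 (plus strand) and chr10:75893237-75893266 (plus strand).
Hspa5: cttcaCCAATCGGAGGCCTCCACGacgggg
Canx: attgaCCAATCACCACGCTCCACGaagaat
Pdia6: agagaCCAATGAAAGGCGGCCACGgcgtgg
Creld2: cttctCGTGGCGAGCCTCAATTGGtccaca
Syvn1: cgcaaCCAATCGGCGGTAGCCACGggaaca
Derl3: tctacCGTGGGACTTCCCCATTGGctagcc
In Creld2 and Derl3 the element read on the opposite strand, as its reverse complement. Counted back from the RefSeq start, where the last base before it is -1, the element of Hspa5 spanned -65 to -47.

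Among the members that did pass a test, Calr, Hsp90b1 and Dnajc3 held the ERSE and Herpud1 the ERSE-II. Eif2ak3, Fkbp2 and Sdf2l1 also passed, but their promoters held neither element and are not shown. The upstream sequences of Calr, Hsp90b1, Dnajc3 and Herpud1 were chosen for their elements and are shown at greater length. The stretches cover chr8:84846935-84847181 (minus strand), chr10:86705510-86705694 (minus strand), chr14:118937682-118937931 (plus strand) and chr8:94386179-94386428 (plus strand). Each begins 250 bases before the RefSeq start and ends at that start, or before the first GENCODE M21 transcript start within the window for Calr and Hsp90b1.
Calr: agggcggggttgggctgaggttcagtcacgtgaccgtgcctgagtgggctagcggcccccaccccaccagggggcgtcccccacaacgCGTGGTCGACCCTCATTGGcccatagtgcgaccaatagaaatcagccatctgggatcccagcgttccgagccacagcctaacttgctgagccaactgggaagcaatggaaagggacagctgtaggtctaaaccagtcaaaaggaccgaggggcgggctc
Hsp90b1: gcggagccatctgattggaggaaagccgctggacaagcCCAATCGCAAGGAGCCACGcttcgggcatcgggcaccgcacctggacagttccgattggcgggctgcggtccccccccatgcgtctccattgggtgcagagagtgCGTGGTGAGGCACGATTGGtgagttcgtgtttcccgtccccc
Dnajc3: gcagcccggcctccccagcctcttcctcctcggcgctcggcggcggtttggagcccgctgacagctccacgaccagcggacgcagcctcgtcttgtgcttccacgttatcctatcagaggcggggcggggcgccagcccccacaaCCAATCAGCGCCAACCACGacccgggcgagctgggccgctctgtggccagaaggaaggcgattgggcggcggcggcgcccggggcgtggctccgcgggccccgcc
Herpud1: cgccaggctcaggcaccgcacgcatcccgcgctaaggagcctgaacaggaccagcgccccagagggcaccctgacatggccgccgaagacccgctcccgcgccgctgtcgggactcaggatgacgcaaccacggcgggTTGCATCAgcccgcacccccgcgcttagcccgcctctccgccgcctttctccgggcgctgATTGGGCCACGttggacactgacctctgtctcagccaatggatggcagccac
Capitals mark the ERSE in the first 3 genes, once in Calr (-162 to -144, reverse complement), at 2 places in Hsp90b1 (-212 to -194, and -107 to -89 as the reverse complement) and once in Dnajc3 (-105 to -87). In Herpud1 the second stretch of capitals is the ERSE-II (-52 to -42). The first is TTGCATCA (-112 to -105), the reverse complement of TGATGNAA, the element recognised by ATF4 with C/EBP partners. That element was present in 2 of the members' promoters (5.41%), those of Herpud1 and Txndc5, against 1304 of all promoters (3.97%). The XBP1 element TGACGTGG was present in 1 member promoter (2.70%), that of Txndc5, against 222 of all (0.676%).

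The values are the authors' normalised counts, taken here as corrected by 1 factor per library. Estimated depths ran from 18.0 to 59.9 M fragments per library, and a count of 3 fragments corresponded to 1.35 to 4.62 units, a floor that covers counting error only. The share of a ribosomal RNA gene was 4.40% to 5.96% in 7 libraries, but 0.649% in OA replicate 1 and 3.06% in OA_T0 replicate 3. These 2 libraries are left out together where a call rests on them. Fibroblast and preadipocyte markers were all detected (10 of 10). Their summed levels were 329716 to 353588 in MDI, 341688 to 375059 in OA and 305259 to 351508 in OA_T0. Single markers moved in opposite directions. Pdgfra read 12785, 12386.5 and 14657 in MDI and 18137, 18160 and 18906 in OA. Fbn1 read 18965, 19540 and 17368 in MDI and 12711, 14034 and 13174 in OA. By the test described below, 1 of the 10 was higher and 1 lower in OA against MDI. These shares (10.0% each) compare with 3.43% and 3.36% of all tested genes. In OA_T0 against OA, 2 were higher and 2 lower (20.0% each, against 8.27% and 6.84%). Summed adipocyte markers ran from 6990.0 to 7700.3 in MDI, from 12945 to 14059.8 in OA and from 10696 to 11564 in OA_T0. Of these markers, 4 of 10 (Adipoq, Plin1, Cidec and Slc2a4) averaged under 3 units. Lpl made up most of each sum, at 5234 to 5628, 9155 to 9512.5 and 8439 to 8949. Cd36 instead read 16.7, 26.1 and 18.0 in MDI, 263, 310 and 391 in OA, and 17.6, 39.2 and 26.2 in OA_T0. Of the 6 tested, 4 were higher and 0 lower in OA against MDI. In OA_T0 against OA 1 was higher and 3 lower, and in OA_T0 against MDI 3 were higher and 0 lower. The part of the adipocyte markers in the differences below was not tested. Leukocyte markers summed to at most 150.2, with Adgre1 at 0 throughout. Endothelial markers summed to at most 20.7, with Tie1 at 0, and epithelial markers, of which 2 of 6 were found, to at most 22.4. Skeletal muscle markers, of which 4 of 6 were found and Myog was at 0, summed to 61.7 to 76.6 in MDI, 88.6 to 113 in OA and 55.3 to 67.8 in OA_T0. These are bulk samples, so a change in the number of cells of a type and a change in RNA per cell cannot be told apart.

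Most of the 37 genes were highly expressed. Of these genes, 36 averaged at least 10 units over the 9 libraries and were tested. The exception was Derl3, a degradation factor of secretory tissues, which read 4.05, 0 and 1.13 in MDI, 0, 2.68 and 2.01 in OA, and 5.17, 1.01 and 0 in OA_T0, and at most 5.17 units in any library. The median coefficient of variation of the 36 tested members over the 9 libraries was 7.81%, and it was not computed over all tested genes. Together the 37 genes took 0.878% ± 0.0119 (SD, n = 3; range 0.865% to 0.888%) of the deposited values in MDI, leaving out the ribosomal RNA gene. The share was 0.951% ± 0.0114 (0.940% to 0.963%) in OA and 0.8995% ± 0.00856 (0.893% to 0.909%) in OA_T0, and the 3 groups did not overlap. A group of 5 abundant genes, P4hb, Hsp90b1, Hspa5, Calr and Canx, held at least 54.3% of the members' sum in every library. From MDI to OA the means of Calr, Hsp90b1 and P4hb rose from 22919 to 29431, 26914 to 32189 and 32595 to 37717. Those of Hspa5 and Canx rose less, from 26907 to 27778 and from 19719 to 20902. By the test described below P4hb did not pass, and the call of Hsp90b1 was lost without single libraries. The share thus need not describe the 37 genes as a group, and none is given here for another list. Per kilobase of exon, P4hb (11393 units in MDI), Calr (10494), Hsp90b1 (9527), Ppib (8287) and Hspa5 (7167) stood highest, and the sensors Eif2ak3 (107) and Ern1 (92.4) lowest among the tested members.

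Few members changed with oleic acid or with the agonist, and those that did changed by at most 1.52-fold. Of the 36 tested, 7 passed the test in at least 1 comparison (Calr, Hsp90b1, Fkbp2, Eif2ak3, Herpud1, Sdf2l1 and Dnajc3) and 29 in none. The test was limma's moderated test on log2(value + 1), adjusted by the Benjamini-Hochberg method over all 15002 tested genes of a comparison, with an adjusted p below 0.05 as passing. Fold changes on this scale slightly understate those of low genes. In OA against MDI, 4 members were higher (11.1% of 36, against 3.43% of all tested genes), 1 was lower (2.78%, against 3.36%) and 31 did not pass. The 4 became 2 without MDI replicate 1 or 2, OA replicate 1 or 3, or OA_T0 replicate 1. In OA_T0 against OA, 2 were higher (5.56%, against 8.27%) and 2 lower (5.56%, against 6.84%), so neither share exceeded that of all tested genes. Each of these counts of 2 became 1 without any one of OA replicates 1 and 2 and OA_T0 replicates 1 and 3, the lower one also without OA replicate 3, and the higher one became 4 without OA_T0 replicate 2. With equal totals the split of that comparison was 2 higher and 5 lower, and with quantile normalisation it was 4 and 4. In OA_T0 against MDI, 0 were higher (against 1.25%; 7 at an unadjusted p below 0.05; 2 passed without MDI replicate 3 and 1 without OA replicate 3) and 1 was lower (2.78%, against 1.36%). With quantile normalisation 1 member was higher and 1 lower in that comparison. The OA libraries enter the first 2 comparisons with opposite signs, and the MDI and OA_T0 libraries are likewise shared, so the comparisons are not independent of one another.

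**Figure D1:**
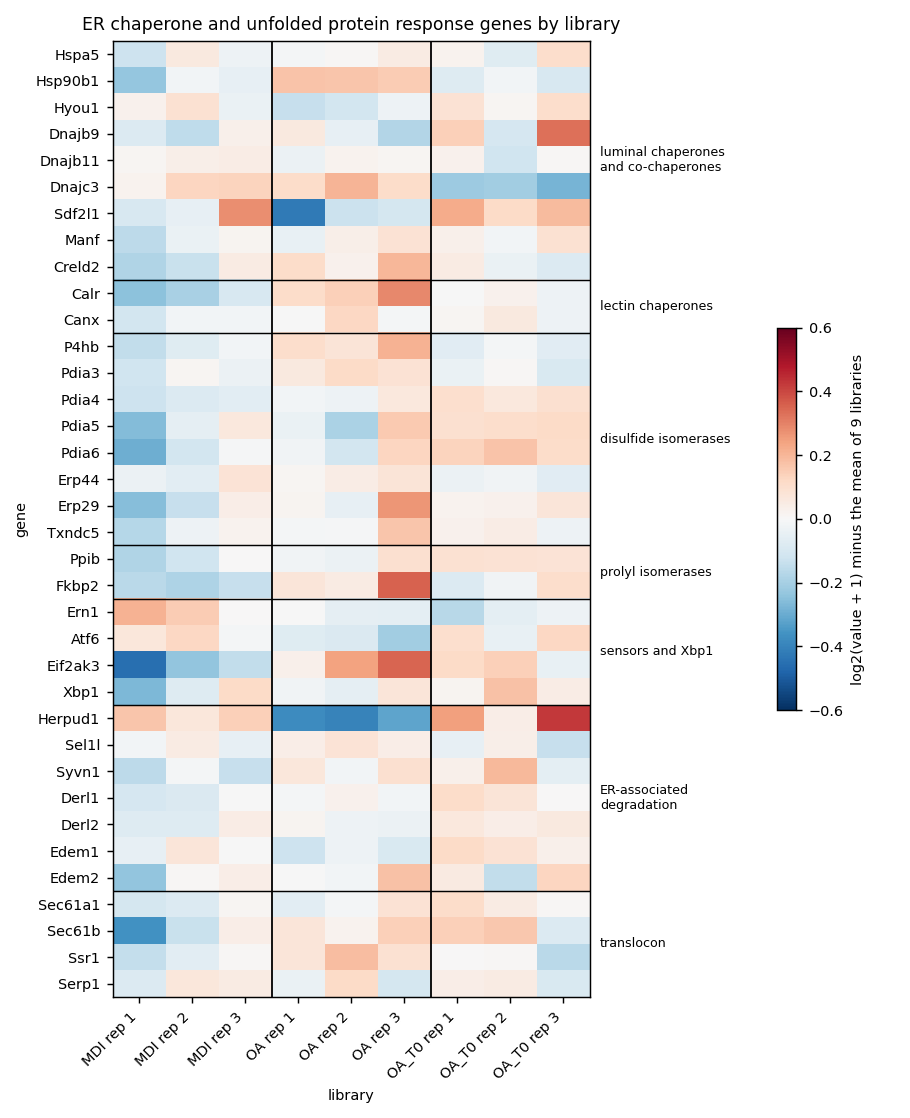
Colours show log2(value + 1) of each of the 36 tested members minus its mean over the 9 libraries, with libraries in columns and genes in rows ordered by role. Most rows are pale, while Herpud1 is blue in all 3 OA libraries, Dnajc3 in all 3 OA_T0 libraries, and Eif2ak3 in all 3 MDI libraries.

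Over the 36 tested members the median log2 fold change was 0.08 in OA against MDI, -0.00 in OA_T0 against OA and 0.08 in OA_T0 against MDI. The same medians over all tested genes were 0.01, -0.00 and 0.02. Fold changes above 0 were held by 28, 18 and 30 of the 36 members, and by 7989, 7438 and 8155 of the 15002 tested genes. In the order of these comparisons, 28, 32 and 31 of the 36 members lay within 0.2 of 0 on the log2 scale, as did 10473, 9135 and 10762 of the 15002 tested genes. The median absolute log2 fold change in OA against MDI was 0.113 for the members and 0.121 for all tested genes. MDI replicate 1, which was also the deepest library at 59.9 M fragments, held the lowest of the 9 values for 22 of the 36 members. The same count was not made over all tested genes, so it may not be particular to the members. Without MDI replicate 1 the members' median was 0.04 in OA against MDI and 0.05 in OA_T0 against MDI. The medians over all tested genes were then -0.0048 and 0.0002. Without MDI replicate 3 the members' median was 0.12 and 0.13. Equal totals gave members' medians of 0.06 and 0.05.

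Among the luminal chaperones, Hspa5 did not pass in any comparison and Hsp90b1 was higher in OA. Hspa5, whose product BiP is the central chaperone of the ER and the usual readout of the unfolded protein response, read 25174, 28608 and 26938 in MDI, 27292, 27641 and 28399.6 in OA, and 27839.5, 26119 and 29524 in OA_T0. The groups overlapped, with means of 26907 ± 1718, 27778 ± 566 and 27828 ± 1702 (SD, n = 3). The log2 fold change was 0.05 in OA against MDI (95% interval -0.10 to 0.19, limma adjusted p = 0.756) and 0.00 in OA_T0 against OA (-0.15 to 0.15, adjusted p = 0.995). In OA_T0 against MDI it was 0.05 (adjusted p = 0.742). Quantile normalisation turned the sign of Hspa5 in all 3 comparisons, with no call.

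Hsp90b1, which encodes GRP94, the Hsp90 paralog of the ER, read 24491, 28462 and 27789 in MDI and 32345, 32289 and 31933 in OA. All 3 OA libraries lay above all MDI libraries. The log2 fold change was 0.26 (SE 0.07, 95% interval 0.12 to 0.41, limma adjusted p = 0.0316), or 1.20-fold. In OA_T0 the gene read 27269, 28435 and 26902, inside the MDI range and below every OA library, with a log2 fold change of -0.23 against OA (SE 0.07, adjusted p = 0.0365). The call against MDI was lost without MDI replicate 1 or 2, any 1 OA library or OA_T0 replicate 1, at adjusted p up to 0.104 (without OA replicate 1). The call of OA_T0 against OA was lost without any 1 OA library or OA_T0 replicate 1 or 3, at adjusted p up to 0.138 (without OA_T0 replicate 1). Without the 2 libraries low in the ribosomal RNA gene the adjusted p was 0.101 and 0.231. Without the filter on low values it was 0.0951 and 0.0896, and the call against MDI was also lost in a fit of only the groups compared (0.0539).

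Dnajc3, a co-chaperone of BiP also known as p58IPK that restrains PERK-type kinases, was lower in OA_T0 than in both other groups. It read 3273, 3528 and 3529.9 in MDI, 3476, 3709.8 and 3483 in OA, and 2766, 2785 and 2653 in OA_T0. The 3 OA_T0 values lay below all 6 others. Against OA the log2 fold change was -0.38 (SE 0.06, 95% interval -0.50 to -0.26, limma adjusted p = 3.48e-04), a level 1.30-fold lower. Against MDI it was -0.33 (SE 0.06, adjusted p = 0.00439), 1.26-fold lower. OA and MDI differed by 0.05 (adjusted p = 0.698). Both calls of Dnajc3 held under all 19 alternatives, and it was the only member that passed in OA_T0 against MDI.

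Sdf2l1, part of the ERdj3 co-chaperone complex and a low-abundance member, read 314, 325 and 409 in MDI, 251, 307 and 312 in OA, and 393, 364 and 384 in OA_T0. The OA_T0 values lay above all OA values, with a log2 fold change of 0.40 (SE 0.12, limma adjusted p = 0.0342), or 1.32-fold. The call rested on 4 single libraries: the adjusted p rose to 0.166 when OA replicate 1 was left out, to 0.0505 for OA replicate 2, to 0.127 for OA_T0 replicate 1 and to 0.0705 for OA_T0 replicate 3. With OA replicate 1 and OA_T0 replicate 3 both left out it was 0.251, and without the filter on low values it was 0.0896. In OA against MDI the log2 fold change was -0.27 (adjusted p = 0.207).

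The other luminal members did not pass in any comparison. Hyou1, the nucleotide exchange factor of BiP, read 5378, 5620.4 and 5126 in MDI, 4786, 4883 and 5161 in OA, and 5599.5, 5324 and 5676 in OA_T0. Its OA_T0 values lay above those of OA without overlap, but at 0.16 on the log2 scale (limma adjusted p = 0.0651). That of Hyou1 passed without OA replicate 3 (adjusted p = 0.0388), without OA_T0 replicate 2 (0.0498) and with quantile normalisation (0.0401). The J-domain co-chaperones Dnajb9 (372 ± 23.9, 376 ± 30.4 and 428 ± 63.0 in MDI, OA and OA_T0) and Dnajb11 (2281 ± 28.2, 2231 ± 47.7 and 2192 ± 118) did not pass, and their groups overlapped. Manf, a small stress-induced protein that binds BiP, read 3083 ± 187, 3274 ± 146 and 3293 ± 121. Creld2, another secreted stress-induced protein, read 664 ± 57.4, 761 ± 45.7 and 694 ± 32.6, with an adjusted p of 0.168 in OA against MDI.

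**Figure D2:**
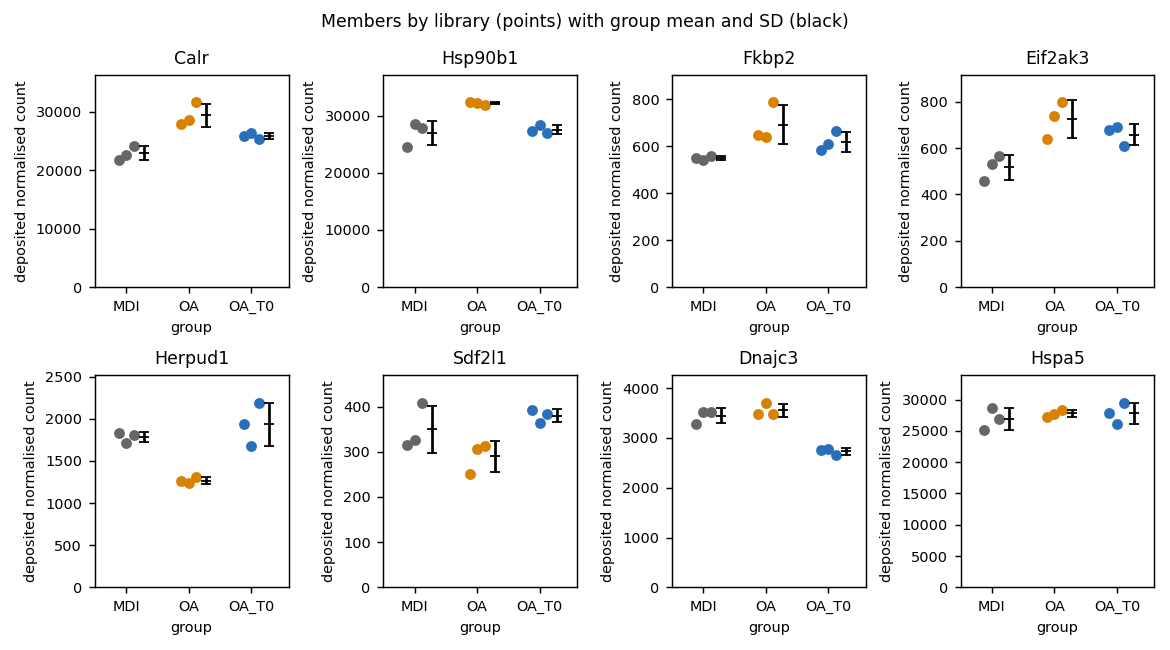
Points are the deposited normalised counts of 8 members in each of the 3 libraries of MDI, OA and OA_T0, and black marks are the group mean with its SD; every vertical axis starts at 0. Herpud1 is lowest in OA, Dnajc3 lowest in OA_T0, Calr, Hsp90b1 and Eif2ak3 highest in OA by mean, and Hspa5 overlaps across groups.

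The lectin chaperones hold newly made glycoproteins until they fold, and the soluble one rose with oleic acid. Calr, which encodes calreticulin, read 21839, 22692 and 24226 in MDI and 27977, 28659 and 31657 in OA, with no overlap. The log2 fold change was 0.36 (SE 0.07, 95% interval 0.22 to 0.50, limma adjusted p = 0.00443), or 1.28-fold, and it passed under all 19 alternatives. In OA_T0 it read 25924, 26382 and 25423, between the other groups and overlapping neither. Neither step passed, at -0.18 against OA (adjusted p = 0.0820) and 0.18 against MDI (adjusted p = 0.177). The first of these passed with quantile normalisation (adjusted p = 0.0112) and with equal totals (0.0248). Canx, the membrane-bound counterpart calnexin, had means of 19719 ± 727, 20902 ± 1112 and 20560.0 ± 659 in MDI, OA and OA_T0, and passed in no comparison.

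None of the 8 disulfide isomerases and related thioredoxin-fold proteins passed in any comparison. P4hb, the most abundant of them and the founding protein disulfide isomerase, read 31062, 32701 and 34023 in MDI, 37078, 36287 and 39788 in OA, and 32858, 34169 and 32801 in OA_T0. The OA values lay above both other groups without overlap, at 0.21 on the log2 scale against MDI (limma adjusted p = 0.0729) and -0.18 for OA_T0 against OA (adjusted p = 0.0823). The first of these passed with robust variance estimates (adjusted p = 0.0466), the second with quantile normalisation (0.0157) and equal totals (0.0315). Pdia3, which works with calreticulin and calnexin, read 16820.3 ± 767, 18436 ± 351 and 16863 ± 564 in the same order of groups. Pdia4 and Pdia6 instead had their highest means in OA_T0, at 8057 ± 119.6 and 4980.0 ± 105 against 7123 ± 155 and 4124 ± 407 in MDI. Their log2 fold changes in OA_T0 against MDI were 0.18 (adjusted p = 0.0884) and 0.28 (adjusted p = 0.0651). That of Pdia6 passed without MDI replicate 3 (adjusted p = 0.0258), without OA replicate 3 (0.0395) and with quantile normalisation (0.0373). Txndc5 (10569 ± 727, 11401 ± 809.8 and 11112 ± 289.6), Erp29 (2788 ± 293, 3195 ± 379.5 and 3097 ± 60.1), Erp44 (1909 ± 102, 1976 ± 44.7 and 1862 ± 30.3) and Pdia5 (666 ± 75.0, 695 ± 83.8 and 757 ± 4.48) did not pass.

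Of the prolyl isomerases, which turn peptide bonds at proline, Fkbp2 was higher in OA. It read 549, 542 and 559 in MDI, 648, 637 and 787 in OA, and 581, 607 and 663 in OA_T0. OA lay above MDI without overlap, with a log2 fold change of 0.32 (SE 0.09, limma adjusted p = 0.0424), or 1.25-fold. Leaving out single libraries took the adjusted p above the threshold for 6 of the 9, namely any MDI library, OA replicates 1 and 3 and OA_T0 replicate 1, up to 0.157 without MDI replicate 2. The call was also lost with equal totals (adjusted p = 0.0596) and without the filter on low values (0.108). Ppib, which encodes cyclophilin B, a collagen-folding isomerase, read 7392 ± 476, 7987 ± 409.8 and 8391 ± 27.2 in MDI, OA and OA_T0 and did not pass.

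Among the sensors, Eif2ak3 was higher in OA than in MDI and the others did not pass in any comparison. Eif2ak3, which encodes PERK, read 457, 531 and 563 in MDI, 638, 740.2 and 797 in OA, and 676, 690.4 and 607 in OA_T0. All 3 OA values and all 3 OA_T0 values lay above all MDI values. For OA the log2 fold change was 0.49 (SE 0.10, 95% interval 0.28 to 0.70, limma adjusted p = 0.00826), or 1.40-fold, and it passed under all 19 alternatives. For OA_T0 against MDI it was 0.35 (adjusted p = 0.0809), which passed without MDI replicate 3 (adjusted p = 0.0483) and without the 2 libraries low in the ribosomal RNA gene (0.0408). OA_T0 and OA differed by -0.14 (95% interval -0.35 to 0.08, adjusted p = 0.387). These are mRNA levels and carry no measure of kinase activity.

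Atf6 had its lowest mean in OA, with 1821 ± 84.1, 1605 ± 80.8 and 1825 ± 113 units in MDI, OA and OA_T0. All OA values of Atf6 lay below both other groups, but its log2 fold changes of -0.18 against MDI (limma adjusted p = 0.120) and 0.18 in OA_T0 against OA (adjusted p = 0.0748) did not pass. The second passed without OA_T0 replicate 2 (adjusted p = 0.0289). Ern1, which encodes IRE1 alpha, read 754 ± 54.7, 673 ± 14.6 and 653 ± 31.6. Xbp1 read 1511 ± 202, 1586 ± 71.5 and 1676 ± 101, with a log2 fold change of 0.08 in OA against MDI (95% interval -0.10 to 0.26, adjusted p = 0.668). These gene-level values do not separate the spliced from the unspliced Xbp1 mRNA.

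Herpud1, which encodes a membrane protein that helps assemble the HRD1 ubiquitin ligase for ER-associated degradation, passed the test in OA against MDI and in OA_T0 against OA, in opposite directions. It read 1833, 1712 and 1804 in MDI, 1256, 1237 and 1309 in OA, and 1936, 1679 and 2192 in OA_T0. The OA values lay below all 6 others, while MDI and OA_T0 overlapped. The log2 fold change in OA against MDI was -0.49 (SE 0.08, 95% interval -0.66 to -0.32, limma adjusted p = 0.00178), a level 1.41-fold lower. In OA_T0 against OA it was 0.60 (SE 0.08, 95% interval 0.43 to 0.77, adjusted p = 1.41e-04), or 1.52-fold. OA_T0 and MDI differed by 0.11 (adjusted p = 0.484). Both calls held under all 19 alternatives. The same OA libraries enter both, so the 2 opposite calls are not separate evidence.

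The remaining 6 tested degradation members did not pass in any comparison. Sel1l and Syvn1, the adaptor and the ligase of the HRD1 complex, read 2937 ± 101, 3059.9 ± 49.3 and 2851 ± 169.6, and 856 ± 47.5, 951 ± 38.2 and 957 ± 87.3, in MDI, OA and OA_T0. Derl1 and Derl2, derlins of the export channel, read 2347 ± 85.2, 2449.5 ± 40.3 and 2561 ± 97.2, and 1545 ± 76.5, 1567 ± 30.9 and 1643 ± 13.8. Edem1 and Edem2, which trim mannose from proteins bound for degradation, read 2441 ± 102, 2293 ± 75.9 and 2562 ± 74.3, and 562 ± 57.2, 608 ± 46.4 and 592 ± 58.2. Edem1 came nearest, at 0.16 on the log2 scale in OA_T0 against OA (limma adjusted p = 0.0697). It passed with quantile normalisation alone among the alternatives (0.0473).

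None of the 4 translocon members passed in any comparison. Sec61a1 and Sec61b, subunits of the channel through which proteins enter the ER, read 7513 ± 316, 7846 ± 419 and 8121 ± 284, and 895 ± 123, 1044 ± 44.6 and 1043 ± 95.7, in MDI, OA and OA_T0. Sec61b passed in OA against MDI without MDI replicate 3 (limma adjusted p = 0.0479). Ssr1, of the translocon-associated complex, read 8604 ± 452, 9770.4 ± 410.4 and 8706 ± 572, higher in OA than in MDI without overlap at 0.18 on the log2 scale (adjusted p = 0.102). For OA_T0 against OA it was -0.17 (adjusted p = 0.0903), which passed with equal totals (0.0300). Serp1, a stabiliser of membrane proteins at the translocon, read 4900.5 ± 274, 4829.8 ± 382 and 4856 ± 266 and did not pass.

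**Figure D3:**
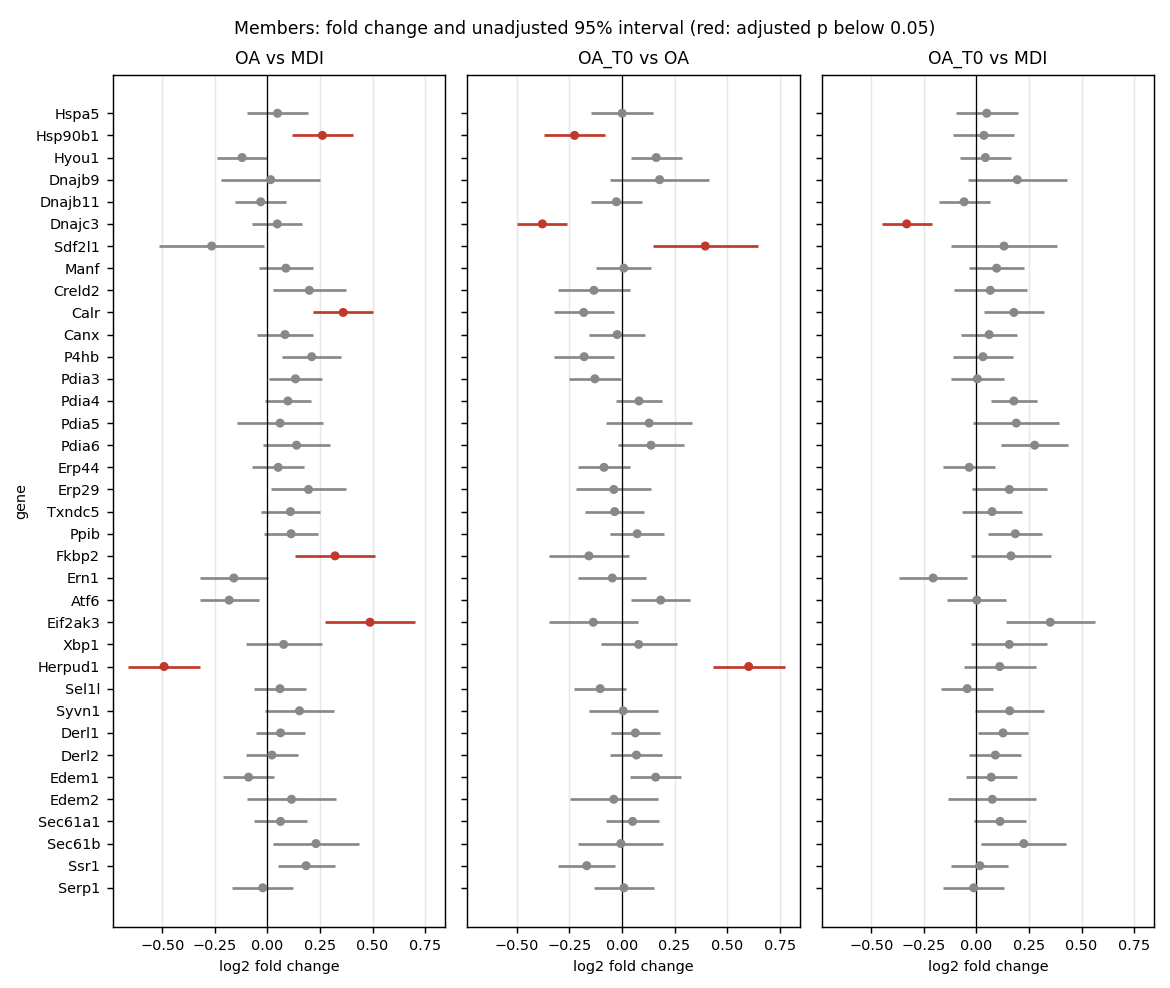
For each of the 36 tested members, points are log2 fold changes and lines their unadjusted 95% intervals in the 3 comparisons, red where the adjusted p was below 0.05. Of the points, 5 are red in OA vs MDI (Calr, Hsp90b1, Fkbp2, Eif2ak3 and Herpud1), 4 in OA_T0 vs OA and 1 in OA_T0 vs MDI (Dnajc3).

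Members with and without an ERSE both held genes that passed. Those counted here as without an ERSE include Herpud1 and Dnajb11, which hold the ERSE-II. In OA against MDI, 2 of the 8 tested members with an ERSE were higher (Calr and Hsp90b1) and 0 lower, with a median log2 fold change of 0.15. Of the 22 members with a promoter but no ERSE, 2 were higher (Eif2ak3 and Fkbp2) and 1 lower (Herpud1), with a median of 0.07. Of all tested genes 3.43% were higher and 3.36% lower there. The call of Hsp90b1, 1 of the 2 higher members with an ERSE, was lost in 6 of the 9 fits that left out 1 library. In OA_T0 against OA, 0 of the 8 were higher and 2 lower (Hsp90b1 and Dnajc3), with a median of -0.08. Of the 22 there were 2 higher (Herpud1 and Sdf2l1) and 0 lower, with a median of -0.02. Among all tested genes 8.27% were higher and 6.84% lower in that comparison. In OA_T0 against MDI, 1 of the 8 was lower (Dnajc3) and 0 of the 22, against 1.36% of all tested genes, with medians of 0.06 and 0.08. Of the pair lower in OA_T0 than in OA, Hsp90b1 had been higher in OA than in MDI (0.26), while Dnajc3 did not pass there (0.05).

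Genes under ATF4, the arm of the response downstream of PERK and of other eIF2 kinases, mostly passed the test in OA against MDI and in OA_T0 against OA. Of 40 such genes, 39 were tested, and in OA against MDI 30 were lower (76.9%, against 3.36% of all tested genes) and 0 higher, with a median log2 fold change of -0.37. Without MDI replicate 2, 19 were lower. With the agonist, OA_T0 against OA, 34 were higher (87.2%, against 8.27%) and 0 lower, with a median of 0.58. In OA_T0 against MDI 6 were higher (15.4%, against 1.25%) and 0 lower, with a median of 0.19. That last count ranged from 1 to 15 when single libraries were left out, with 15 without OA_T0 replicate 2, 3 without OA_T0 replicate 3 and 1 without MDI replicate 1, MDI replicate 2 or OA_T0 replicate 1. The members' medians in the same comparisons were 0.08, -0.00 and 0.08. The ATF4 genes were listed with earlier results of these libraries known, so their direction is a description.

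**Figure D4:**
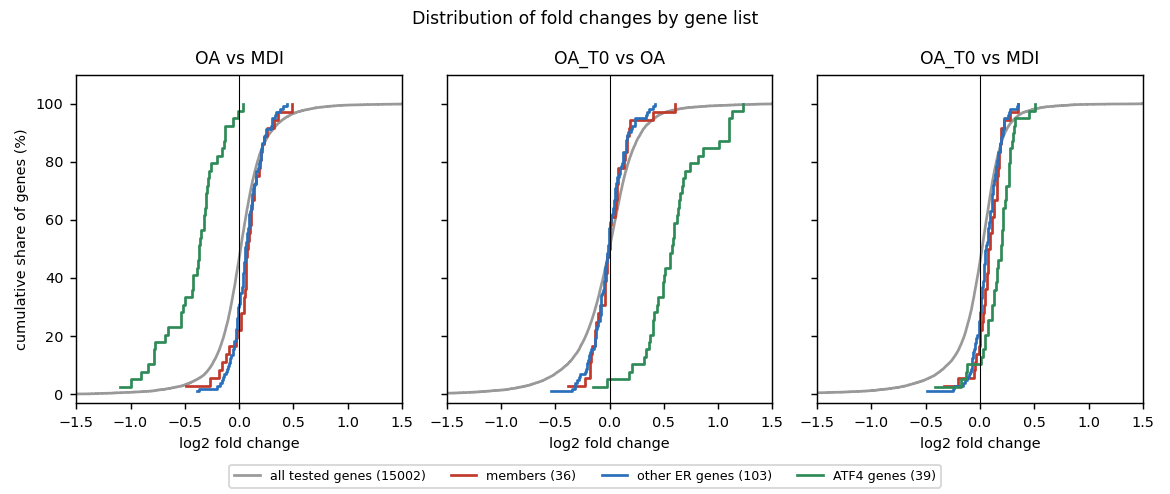
Each line is the cumulative share of genes (%) at or below a log2 fold change, for all 15002 tested genes, the 36 tested members, 103 other ER genes and 39 ATF4 genes, in the 3 comparisons; the horizontal axis stops at 1.5 in both directions. The ATF4 line lies to the left of the others in OA vs MDI (median -0.37) and to the right in OA_T0 vs OA (median 0.58), while members and other ER genes run close to all tested genes.

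Atf4 itself averaged 11929 ± 472 in MDI, 9275 ± 132 in OA and 14725 ± 1246 in OA_T0 (SD, n = 3). Its log2 fold changes were -0.36 in OA against MDI (limma adjusted p = 0.00343) and 0.66 in OA_T0 against OA (adjusted p = 7.67e-06). Ddit3, which encodes the stress-induced factor CHOP, averaged 1414 ± 54.8, 1050.5 ± 47.8 and 1647 ± 264, at -0.43 (adjusted p = 0.0128) and 0.64 (adjusted p = 3.48e-04). Trib3, a pseudokinase induced by ATF4 and CHOP, changed by -0.91 and 1.10, and Ppp1r15a, the phosphatase subunit that reverses eIF2 phosphorylation, by -0.78 and 1.01, and both passed in both comparisons. Among the members only Herpud1 passed both in OA against MDI, downward, and in OA_T0 against OA, upward, at -0.49 and 0.60. Eif2ak3, which lies upstream of ATF4, was by contrast higher in OA (0.49), and Hspa5 did not pass, at 0.05 and 0.00.

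Other ER genes, 106 in number and 103 tested, gave medians close to those of the members. In OA against MDI 10 were higher (9.71%, against 3.43% of all tested genes) and 2 lower (1.94%, against 3.36%), with a median log2 fold change of 0.06. In OA_T0 against OA 9 were higher (8.74%) and 8 lower (7.77%), shares close to the 8.27% and 6.84% of all tested genes (median -0.02). In OA_T0 against MDI 2 were higher (1.94%, against 1.25%) and 1 lower (0.971%, against 1.36%), with a median of 0.05. Single libraries moved these counts: the 10 dropped to 1 without MDI replicate 2, to 2 without MDI replicate 1, and to 3 to 5 without OA replicate 1, OA replicate 3 or OA_T0 replicate 1. The 9 and 8 dropped as far as 4 and 2 without OA_T0 replicate 1, and OA replicates 1 and 2 and OA_T0 replicate 3 also lowered 1 or both by over 1.5 times. The 2 and 1 of OA_T0 against MDI both became 0 without MDI replicate 1 or OA_T0 replicate 1, and reached 5 without MDI replicate 3 and 3 without OA_T0 replicate 2.

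Of the 10 that were higher in OA, 7 were among the 31 folding genes (22.6% of them, against 3.43% of all tested genes), of which 1 was lower (3.23%, against 3.36%). The share of folding genes higher in OA_T0 against OA was 3.23%, below the 8.27% of all tested genes, and 16.1% were lower, against 6.84%. Qsox1, a secreted sulfhydryl oxidase, averaged 1209 ± 102 in MDI, 1563 ± 79.6 in OA and 1273 ± 60.2 in OA_T0, with a log2 fold change of 0.37 in OA against MDI (limma adjusted p = 0.00580) and -0.30 in OA_T0 against OA (adjusted p = 0.0125). Fkbp7, a prolyl isomerase like Fkbp2, and Rcn1, a calcium-binding protein of the ER lumen, rose by 0.40 (adjusted p = 0.00632) and 0.24 (adjusted p = 0.0156) and fell by 0.32 (adjusted p = 0.0135) and 0.32 (adjusted p = 0.00123) in the same comparisons. Ero1l, the oxidase that recharges protein disulfide isomerase, was the folding gene that fell, from 8779.9 ± 584 to 6741 ± 810 (-0.39, adjusted p = 0.0143). Ganab, a subunit of glucosidase II, averaged 9519 ± 67.3 in MDI, 9346 ± 262 in OA and 7988 ± 93.4 in OA_T0, lower in the last at -0.23 against OA (adjusted p = 0.00771) and -0.25 against MDI (adjusted p = 0.0144). Dnajc3 was likewise lower in OA_T0 than in both other groups, at -0.38 and -0.33.

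Of the 31 tested genes of translocation and N-glycosylation, 2 were higher in OA (6.45%, against 3.43% of all tested genes) and 2 in OA_T0 against MDI (6.45%, against 1.25%). The 1 higher and 1 lower gene of OA_T0 against OA (3.23% each) stood below the shares of all tested genes, 8.27% and 6.84%. Krtcap2, of the oligosaccharyltransferase, averaged 1839 ± 67.1, 1775 ± 72.9 and 2348 ± 208 in MDI, OA and OA_T0 and passed in OA_T0 against OA (0.40, limma adjusted p = 0.00124) and against MDI (0.35, adjusted p = 0.0132). Stt3a, a catalytic subunit of the same enzyme, rose in OA (0.23, adjusted p = 0.0356) and was lower in OA_T0 than in OA (-0.20, adjusted p = 0.0418). Of the 24 other degradation genes, 1 was higher in OA (4.17%, against 3.43%) and 4 in OA_T0 against OA (16.7%, against 8.27%), with Aup1, a lipid droplet and ER protein of the degradation pathway, at 0.34 (adjusted p = 0.00184) in the latter.

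Among 17 other sensor and signalling genes, 1 was lower in OA (5.88%, against 3.36% of all tested genes), and in OA_T0 against OA 3 were higher (17.6%, against 8.27%) and 2 lower (11.8%, against 6.84%). Wfs1, an ER membrane protein mutated in Wolfram syndrome, averaged 710.2 ± 49.0 in MDI, 549 ± 43.0 in OA and 738 ± 87.6 in OA_T0, at -0.37 (limma adjusted p = 0.0303) and 0.42 (adjusted p = 0.00836). Atf6b, the paralog of Atf6, averaged 1252 ± 27.97, 1089.95 ± 58.3 and 1402 ± 86.0 and passed in OA_T0 against OA (0.36, adjusted p = 0.00195). Its decrease in OA against MDI, -0.20, did not pass (adjusted p = 0.0880). Both had their lowest mean in OA, as did the tested members Herpud1, Atf6, Hyou1, Sdf2l1, Edem1 and Serp1. Of these members only Herpud1 passed in OA against MDI.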

How the data were processed

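Poly(A) RNA of 9 strand-specific libraries of 3T3-L1 cells was analysed from the deposited table. The authors deposited a signal per gene, normalised counts, which were taken here as divided by 1 factor per library. The submitters' processing notes list the build mm9 and, with no roles given, DESeq2, HTSeq, TopHat and CASAVA 1.8.2. Low values were compared with multiples of 1 step per library, taken as 1 fragment. Between 5 and 50 steps, 62.3% to 68.8% of values were whole within 0.05 of a step, so reads were not recovered and no count test was run. The deposited total over the step gave the depths, which thus rest on that reading.

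Genes with a mean of at least 10 (15002 of 28965) were tested on log2(value + 1) with limma 3.58.1 in R 4.3.3 (intensity trend, 1 spread shared by the 3 groups, two-sided), adjusted by Benjamini-Hochberg within each of 3 comparisons. Levels per kilobase used GENCODE M21 exon lengths. Reads shared between paralogs cannot be separated.

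The members, the pathway and marker lists and the tests were chosen with earlier results of these data known. Named pathway genes were up to 4 passing genes per list and comparison with the smallest adjusted p, plus Atf4, Ddit3, Trib3 and Ppp1r15a. Of the other ER symbols 3 matched through synonyms. Alternatives were pseudocounts of 0.5 and 5, no filter, a filter at 50, quantile normalisation, equal totals, only the groups compared, a replicate block, robust variances and each library left out in turn. Leaving out both libraries low in the ribosomal RNA gene was chosen after seeing the data.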

Additional observations from a re-analysis of the deposited data

How the results depend on the processing

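Under the 19 alternatives the counts of members lower in OA against MDI (1) and in OA_T0 against MDI (1) did not change. Without the filter the members higher in OA against MDI went from 4 to 2, those higher and lower in OA_T0 against OA each from 2 to 1, and the ATF4 genes higher in OA_T0 against MDI from 6 to 1. Quantile normalisation gave 4 members higher and 4 lower in OA_T0 against OA, and 1 member higher and 1 ATF4 gene lower in OA_T0 against MDI. Equal totals gave 5 members lower in OA_T0 against OA and 2 ATF4 genes higher in OA_T0 against MDI. Without both libraries low in the ribosomal RNA gene, OA_T0 against OA gave 1 member higher and 1 lower, and OA_T0 against MDI 1 member higher and 1 ATF4 gene higher.

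Leaving out single libraries gave 2 to 4 members higher in OA against MDI (2 without MDI replicate 1 or 2, OA replicate 1 or 3, or OA_T0 replicate 1). It gave 1 to 4 members higher and 1 to 2 lower in OA_T0 against OA, and 0 to 2 higher in OA_T0 against MDI. It gave 19 to 30 ATF4 genes lower in OA against MDI (19 without MDI replicate 2), 0 to 1 lower in OA_T0 against OA, and 1 to 15 higher in OA_T0 against MDI. The cause of these shifts was not tested. The call of Fkbp2 was also lost with equal totals (adjusted p = 0.0596) and that of Hsp90b1 in OA against MDI with only the groups compared (0.0539).

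The replicate numbers did not pair the samples: same-numbered libraries' deviations correlated at -0.256 to 0.259. With a replicate block, members lower in OA_T0 against OA went from 2 to 1 (Hsp90b1 lost, adjusted p = 0.0545), and Hsp90b1 was also lost in OA against MDI (adjusted p = 0.0514).

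The log2 fold change of Hspa5, never called, turned sign with quantile normalisation to -0.0141, -0.0131 and -0.0272 in OA against MDI, OA_T0 against OA and OA_T0 against MDI. In OA_T0 against OA it was -0.0169 with equal totals, -0.0552 without both libraries low in the ribosomal RNA gene, and between -0.0426 and 0.0458 with single libraries left out. Of 49 member fold changes nearer to 0 than 0.1, 21 turned sign under some alternative, none of them called.

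Over all tested genes the counts of higher and lower genes fell from 514 and 504 to 233 and 234 without the filter in OA against MDI, and from 188 and 204 to 72 and 38 in OA_T0 against MDI. Without OA_T0 replicate 1 those of OA_T0 against OA fell from 1240 and 1026 to 580 and 474. Derl3 was untested because its mean lay under the filter of 10.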

Other observations

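The 8 tested genes whose log2 values correlated most with those of Hspa5 over the 9 libraries were none of its co-members. They were Gm6563 (Pearson r = 0.936), Rpl6l (0.919), Ctr9 (0.911), Cfdp1 (0.906), Cwc15 (0.903), Gpr89 (0.903), Bud31 (0.902) and Pole3 (0.895). Hspa5 varied by 4.80% over these libraries, and all genes share the libraries' depth and scaling, so the list is a description with no test.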
